A study of Rhododendron with 15 samples.

Results

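The subject here is the effect of melatonin at 40 °C on leaf transcripts of 'xiaotaohong', a variety of Rhododendron, a genus of woody ornamentals. It was read from 6 of the 15 libraries: 3 from leaves at 40 °C with melatonin applied (MT40) and 3 from leaves at 40 °C that the labels call normal, without melatonin (CK40). The members were chosen by these labels alone, and all 29985 listed genes were considered. The other 9 libraries, 3 each from 35 °C with melatonin (MT35), 35 °C without it (CK35) and 25 °C without it (CK25), gave levels to set beside the values and, in the fit, a shared estimate of the spread. All groups share 1 variety and 1 tissue, and MT40 and CK40 share the temperature. The labels used here do not state how much melatonin was applied, in what way, for how long the leaves were heated, or when they were taken. Nor do the labels say whether the 3 libraries of a group came from separate plants. The p-values set a difference between groups against the spread among libraries within the 5 groups. That spread may be only technical.

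Melatonin is an indole compound that plants make from tryptophan, and it is studied as an antioxidant and as a regulator of stress responses. In leaves, severe heat impairs photosynthesis early, in part because Rubisco activase, which keeps the carbon-fixing enzyme Rubisco active, is unstable at high temperature. Heat also unfolds proteins, and cells answer by making chaperones, among them the small heat shock proteins, which hold unfolding proteins, and the HSP70 and HSP90 families, which use ATP to refold them.

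Total counts per library were 61137577, 54300447 and 57251711 in MT40, against 59362192, 65503539 and 65795707 in CK40. Across genes, log2 CPM (counts scaled to the library total) correlated at 0.971 to 0.973 between MT40 libraries and at 0.968 to 0.974 between CK40 libraries, and at 0.885 to 0.891 between MT40 and CK40. On the first principal component, with 58.9% of the variance, MT40 lay at 85.9 to 87.6 and CK40 at 231.7 to 240.2. Both 35 °C groups lay between -81.8 and -77.2 on it and CK25 between -162.3 and -161.6. On the second component, with 12.4% of the variance, MT40 lay at 107.3 to 109.4 and CK40 at -79.6 to -69.5. Within CK40, replicate 1 stood apart from replicates 2 and 3. Among the 25% of genes with most counts, an index of spread relative to counting error was taken for each pair of replicates. Its median was 9.31 for replicates 2 and 3 of CK40, against 25.2 and 25.3 for the pairs with replicate 1. In CK35 the median was 14 for replicates 2 and 3, against 20.8 and 20.5 for the pairs with replicate 1. This index is not a multiple of the counting SD. Transcripts of the mitochondrial genome took 0.0601, 0.0566 and 0.0690% of the counts in MT40, against 0.202, 0.222 and 0.219% in CK40. The part of this difference in the results was not tested.

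**Figure D1:**
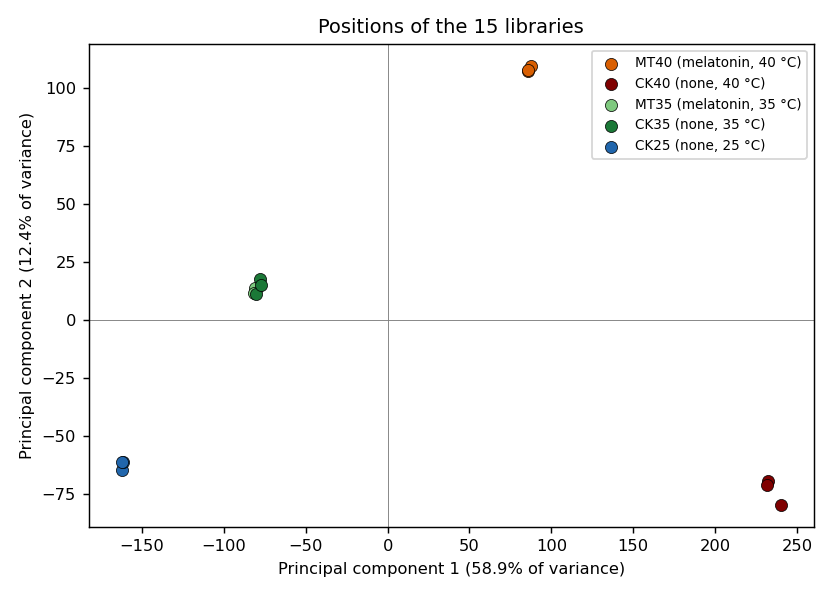
Positions of the 15 libraries on the first and second principal components of log2 CPM, in arbitrary units, with 1 point per library and 1 colour per group. The 3 MT40 libraries sit together at 85.9 to 87.6 on the horizontal axis, between the 35 °C groups and the 3 CK40 libraries at 231.7 to 240.2, and above the other groups on the vertical axis.

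Melatonin at 40 °C went with different levels in most genes that could be tested. By edgeR's quasi-likelihood test on the deposited counts, with Benjamini-Hochberg adjustment over the 26183 genes tested and a call at adjusted p under 0.05, 15466 genes (59.1%) differed between MT40 and CK40. Of these, 8605 (32.9% of the genes tested) were higher in MT40 and 6861 (26.2%) were lower. At least 2-fold differences were called in 4247 genes higher (16.2%) and 2894 genes lower in MT40 (11.1%), and at least 4-fold differences in 1853 and 1409 genes. The FPKM values of the groups did not overlap in 17818 genes (68.1%). The median log2 fold change, MT40 minus CK40, was 0.10 over all genes tested, and the median of its absolute size was 0.67. Without CK40 replicate 1, 14568 genes were called.

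The split between higher and lower depended on the scale and on the libraries fitted. Of the called genes, 55.6% were higher in MT40 on TMM-scaled counts, while limma on log2(FPKM + 1) called 10423 genes higher and 5227 lower, so that 66.6% were higher. The share was 51.0% with RLE scaling in edgeR and 51.6% with DESeq2. Fitting the 6 libraries alone turned the majority, with 7294 genes higher and 7569 lower (49.1% higher). The log2 ratio of deposited FPKM exceeded the TMM-scaled log2 fold change by a median of 0.19 over 17209 well measured genes. Fold changes below are TMM-scaled log2 values with their SE, and levels are deposited FPKM, so a ratio of the printed FPKM runs above the fold change by about that shift. Every gene named as higher or lower below kept its direction and its call under limma on FPKM as well. Nearly all of these genes were chosen from those already called, which favoured this outcome. Over all genes tested, 32.9% were called higher and 26.2% lower. Counts for the gene lists below are to be read beside these shares.

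The 12 largest rises were genes of varied functions. A granule-bound starch synthase gene (MSTRG.5792, chromosome 3, 33743555 to 33747716), whose enzyme makes the amylose of starch, had 338, 338 and 347 FPKM in MT40, against 3.63, 4.15 and 4.06 FPKM in CK40. Its log2 fold change was 6.24 ± 0.05 (adjusted p = 1.29e-18). Its mean was 199 FPKM in MT35, 274 in CK35 and 932 in CK25, so the CK40 libraries stood alone at the low end and MT40 lay among the cooler groups.

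A gene for galactinol synthase 1 (MSTRG.20857, chromosome 12, 18674010 to 18677112), the first enzyme on the way to raffinose sugars, was among the most abundant transcripts in the comparison. It had 6091, 6128 and 6157 FPKM in MT40, against 440, 434 and 448 FPKM in CK40, a log2 fold change of 3.60 ± 0.02 (adjusted p = 2.72e-19). The MT40 level was close to the means of 5419 FPKM in MT35, 6215 in CK35 and 5838 in CK25. Chlorophyll a-b binding protein 13 (MSTRG.24636), a light-harvesting antenna protein, had 109, 112 and 112 FPKM in MT40, against 2.90, 3.17 and 3.65 FPKM in CK40 (log2 fold change 4.90 ± 0.07). A metallothionein-like gene (MSTRG.11444), for a small metal-binding protein, averaged 2250 ± 291 FPKM in MT40 and 108 ± 20.3 FPKM in CK40 (SD, n = 3 each). It is a merged locus, whose counts sum over more than 1 annotated gene.

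The other rises ran from 4.03 to 8.84 on the log2 scale. They were an ammonium transporter gene (MSTRG.9862, a merged locus), an aquaporin, that is, a water channel gene (MSTRG.8662), and a sugar transport gene (MSTRG.7849). An acireductone dioxygenase (MSTRG.7797), an enzyme of methionine salvage, averaged 603 ± 4.09 FPKM in MT40 and 32.4 ± 3.91 FPKM in CK40. A carotenoid cleavage dioxygenase (MSTRG.12806), which degrades carotenoids, a pair of leucine-rich repeat receptor kinase genes (MSTRG.24748 and the merged MSTRG.2701) and a merged locus annotated with an ATPase alpha subunit and the same kinase description (MSTRG.2775) completed the group. Groups that did not overlap were a condition for the choice of these 12 genes.

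The 12 largest falls included 4 genes that act on cell walls. A xyloglucan endotransglucosylase/hydrolase gene (MSTRG.22297, chromosome 13, 10628236 to 10631847), whose enzyme cuts and rejoins wall xyloglucan, had 0, 30 and 35 counts in MT40, against 48205, 55345 and 53702 counts in CK40. In FPKM this was 0.280 ± 0.243 in MT40 and 599 ± 13.4 in CK40. Its mean was 0.0953 FPKM in MT35, 0.0571 in CK35 and 0.572 in CK25, so of all 5 groups only CK40 had it at a high level.

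A beta-D-xylosidase gene (MSTRG.8066, chromosome 4, 37078069 to 37085826), for an enzyme that trims xylose from wall polymers, had 58.5, 58.8 and 60.1 FPKM in MT40, against 1539, 1724 and 1711 FPKM in CK40. Its log2 fold change was -5.00 ± 0.06 (adjusted p = 2.04e-16). Pectate lyase 18 (MSTRG.14880), which cleaves pectin, had 2.73, 1.74 and 3.42 FPKM in MT40, against 310, 324 and 320 FPKM in CK40 (-7.10 ± 0.17). Expansin-A1 (MSTRG.20456), a wall-loosening protein, had 5.74, 5.62 and 4.45 FPKM in MT40, against 253, 241 and 247 FPKM in CK40 (-5.74 ± 0.09). Here MT40 was the lowest of all groups, since the means were 249 FPKM in MT35, 88.2 in CK35 and 94.8 in CK25.

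Outside the wall, an alpha,alpha-trehalose-phosphate synthase gene (MSTRG.146), of the family that makes the signalling sugar trehalose-6-phosphate, averaged 11.02 ± 0.701 FPKM in MT40 and 454 ± 6.71 FPKM in CK40 (-5.56 ± 0.08). A gene described as DNA mismatch repair protein like (MSTRG.3297) averaged 7.88 ± 0.491 FPKM in MT40 and 381 ± 8.21 FPKM in CK40. The remaining falls were 2 germin-like genes (MSTRG.23584 and the merged MSTRG.19392), an aquaporin of the NIP type (MSTRG.17531), a pathogenesis-related gene of the PR-1 type (MSTRG.19662, merged), an asparagine synthetase (MSTRG.1816) and a mannose-6-phosphate isomerase (MSTRG.14216). The germin-like, aquaporin and asparagine synthetase genes had 0 to 27 counts per MT40 library, so their fitted fold changes rest on few counts on that side. As for the rises, groups that did not overlap were a condition of the choice.

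**Figure D2:**
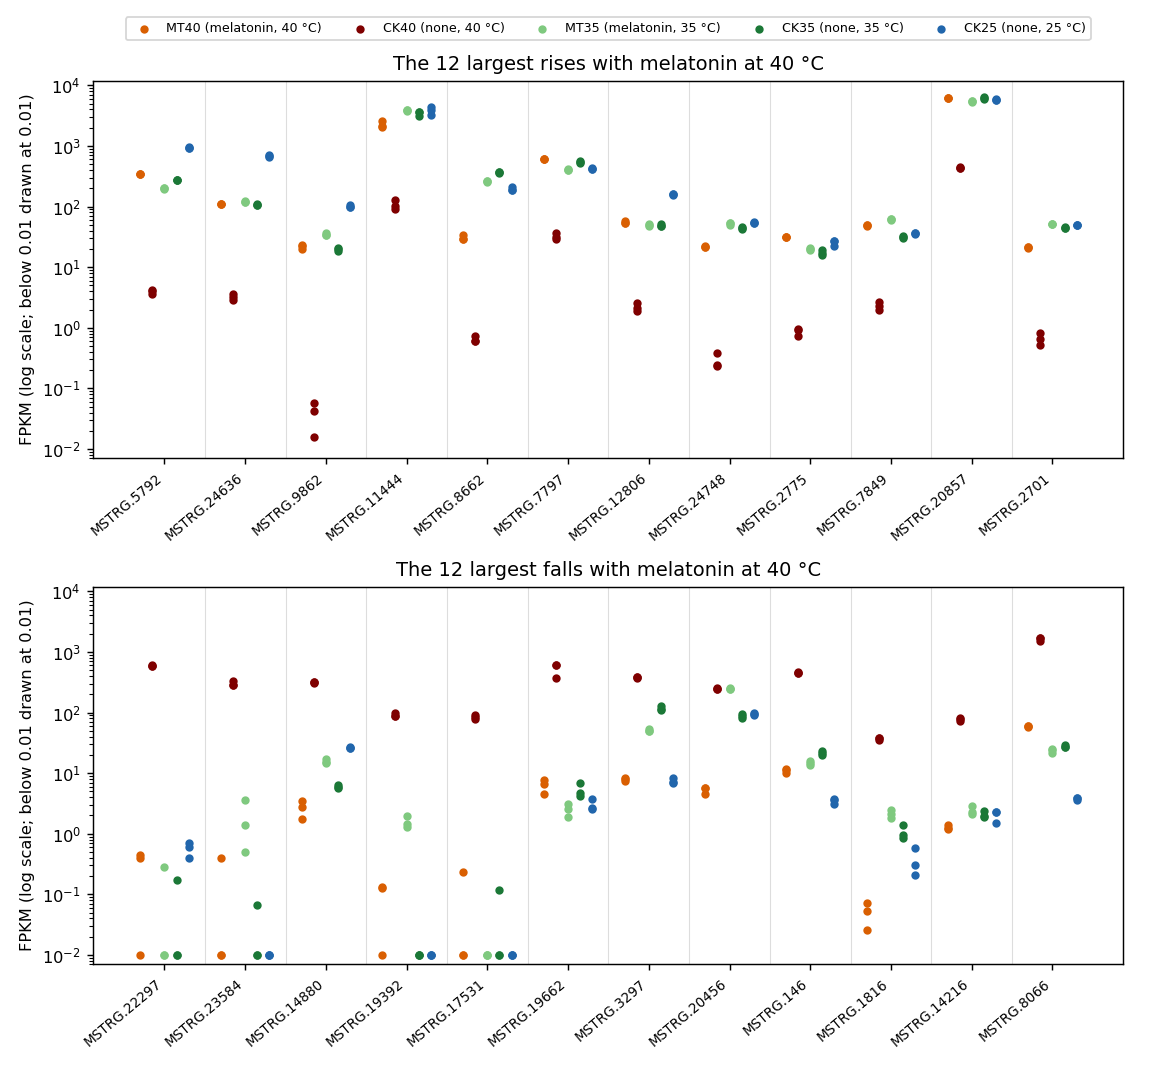
FPKM (vertical log axis) of the 12 largest rises (upper panel) and 12 largest falls (lower panel) with melatonin at 40 °C, 1 point per library, with the 5 groups in separate colours and values below 0.01 drawn at 0.01. In the rises the CK40 points lie below those of every other group, and in 11 of the falls above them, the exception being expansin-A1 (MSTRG.20456), where MT35 reached the CK40 level.

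Light-harvesting genes and most photosystem and Calvin cycle genes were higher in MT40. All 10 tested light-harvesting genes, for the antenna proteins that bind chlorophyll, were called higher, with a median log2 fold change of 1.97, where 32.9% of all genes tested were called higher and the median was 0.10. Their summed level was 9858 to 9918 FPKM in MT40, against 1777 to 1812 FPKM in CK40. It was 11420 to 11670 FPKM in MT35, 12640 to 13250 in CK35 and 13920 to 14790 in CK25. MT40 thus stood below all 3 cooler groups and far above CK40, and in bulk leaf RNA fewer cells of a type and less RNA per cell cannot be told apart.

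The most abundant antenna gene, chlorophyll a-b binding protein 5 (MSTRG.6604), had 2464, 2491 and 2492 FPKM in MT40, against 550, 515 and 519 FPKM in CK40 (log2 fold change 2.04 ± 0.05, adjusted p = 3.48e-13). Chlorophyll a-b binding protein 8 (MSTRG.6506, chromosome 4, 3362537 to 3364019), an antenna protein of photosystem I, had 2269, 2255 and 2271 FPKM in MT40, against 369, 352 and 362 FPKM in CK40. The antenna protein P4 gene (MSTRG.21116) had 1961, 1915 and 1988 FPKM in MT40, against 366, 342 and 349 FPKM in CK40. Near-identical antenna genes can share reads, so the split among them is less certain than their sum.

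Of 28 photosystem and electron transport genes, 19 were called higher and 2 lower, with a median log2 fold change of 0.74; limma on log2(FPKM + 1), and edgeR without MT40 replicate 2, called 1 lower. The oxygen-evolving enhancer proteins 1 (MSTRG.14408) and 2 (MSTRG.20109), which shield the water-splitting site of photosystem II, had log2 fold changes of 0.76 ± 0.03 and 0.68 ± 0.05. Plastocyanin (MSTRG.10096), the copper protein that carries electrons to photosystem I, averaged 1726 ± 18.6 FPKM in MT40 and 820 ± 12.4 FPKM in CK40. A root-type ferredoxin-NADP reductase (MSTRG.22423) was lower, with 41.1, 45.8 and 43.4 FPKM in MT40, against 63.6, 57.95 and 57.0 FPKM in CK40.

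Among 11 Calvin cycle genes, which cover carbon fixation, 9 were called higher and none lower, and the median log2 fold change was 1.24. At unadjusted p under 0.05 in edgeR, and by DESeq2, the count of genes lower was also 0. A Rubisco activase 1 gene (MSTRG.9620, chromosome 5, 31570269 to 31573635) had 1651, 1654 and 1653 FPKM in MT40, against 153, 149 and 159 FPKM in CK40. Its log2 fold change was 3.24 ± 0.04 (adjusted p = 6.50e-17). The cooler groups also had far less of it, with means of 180 FPKM in MT35, 171 in CK35 and 9.67 in CK25, so the MT40 libraries were the highest of all 15.

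A second Rubisco activase gene (MSTRG.22136, chromosome 13, 7741349 to 7745360) showed another order of groups. It had 2068, 2106 and 2116 FPKM in MT40, against 600, 582 and 583 FPKM in CK40 (log2 fold change 1.64 ± 0.02), but its means were 3584 FPKM in MT35, 4633 in CK35 and 5143 in CK25. The Rubisco small subunit gene (MSTRG.20588) had 2223, 2136 and 3261 FPKM in MT40, against 1439, 1397 and 1386 FPKM in CK40, a log2 fold change of 0.66 ± 0.17 (adjusted p = 0.00420). MT40 replicate 3 was well above the other two MT40 libraries for this gene.

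**Figure D3:**
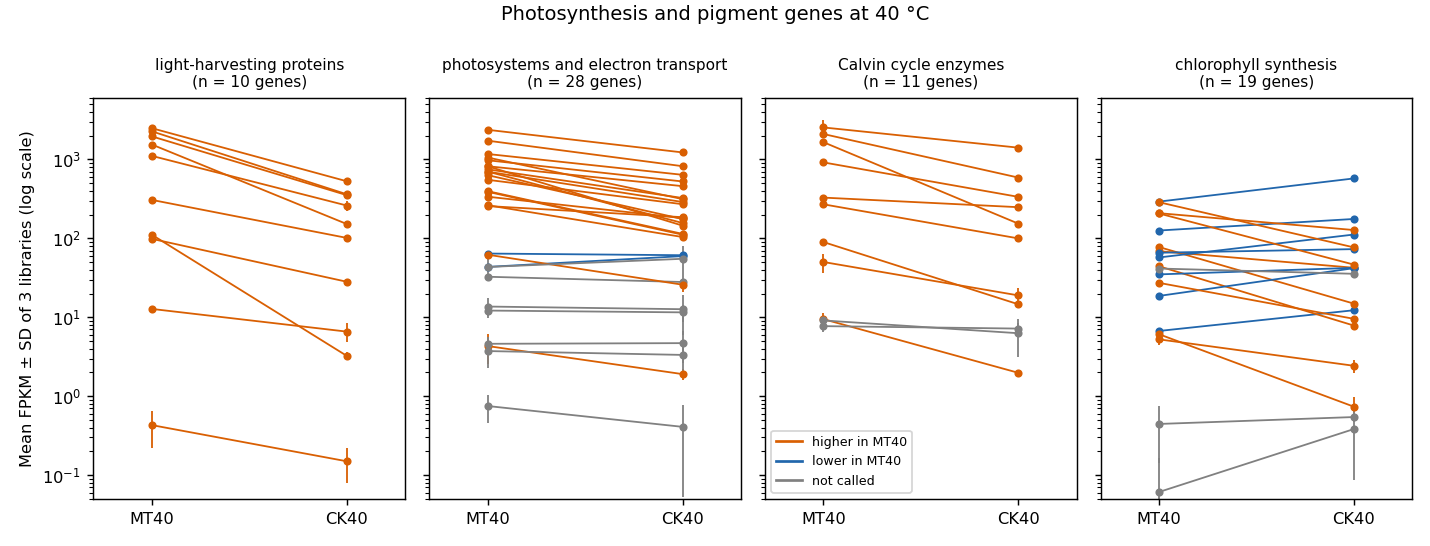
Mean FPKM ± SD of 3 libraries (vertical log axis) in MT40 (left) and CK40 (right) for each tested gene of the light-harvesting, photosystem, Calvin cycle and chlorophyll synthesis lists, coloured by its call on counts. All 10 light-harvesting genes are higher in MT40, while chlorophyll synthesis splits into 9 higher and 7 lower. A photosystem gene near 60 FPKM is called lower on TMM-scaled counts although its FPKM is slightly higher in MT40.

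Chlorophyll synthesis did not move as one. Of 19 genes, 9 were called higher and 7 lower. The magnesium chelatase subunit ChlH (MSTRG.7116), which helps insert magnesium into the ring, had 205, 210 and 204 FPKM in MT40, against 44.5, 48.1 and 46.6 FPKM in CK40 (log2 fold change 1.96 ± 0.03). Subunit ChlI of the same enzyme (MSTRG.3370) was also higher (0.52 ± 0.04). Protochlorophyllide reductase, the light-dependent step that makes chlorophyllide, was split between a gene that was higher (MSTRG.6417, 1.71 ± 0.03) and a gene that was lower (MSTRG.11421, -1.17 ± 0.05). An early enzyme, glutamate-1-semialdehyde aminomutase (MSTRG.21299), was lower as well, with 58.05, 57.3 and 56.5 FPKM in MT40, against 114, 112 and 110 FPKM in CK40.

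Of 7 chlorophyll breakdown genes, 6 were called higher and 1 lower; without CK40 replicate 3, and in a fit on the 6 libraries alone, 3 were called higher. Pheophytinase (MSTRG.1047), which removes the phytol tail, had 112 FPKM in each MT40 library, against 60.2, 63.7 and 65.7 FPKM in CK40. Pheophorbide a oxygenase (MSTRG.22302), which opens the ring, was lower (-0.83 ± 0.06). Of 23 carotenoid enzymes 10 were higher and 4 lower, the higher ones including a pair of zeaxanthin epoxidase genes (MSTRG.1510, 1.25 ± 0.07, and MSTRG.17810, 0.72 ± 0.08) of the xanthophyll cycle and phytoene synthase (MSTRG.18268, 0.45 ± 0.05), the entry enzyme of the pathway.

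Starch genes differed in both directions. Of 12 starch synthesis genes, 6 were called higher and 2 lower. Beside the granule-bound synthase described above, a second granule-bound synthase (MSTRG.14122, 0.74 ± 0.05) and a soluble starch synthase (MSTRG.22652, 0.84 ± 0.05) were higher, and a branching enzyme (MSTRG.10053) was lower, with 28.5, 30.9 and 28.9 FPKM in MT40, against 80.5, 83.6 and 81.7 FPKM in CK40. Of 16 starch breakdown genes, 6 were higher and 8 lower; limma on log2(FPKM + 1) called 5 lower. Beta-amylase 4 (MSTRG.2591, chromosome 2, 7305913 to 7313019), of the family that releases maltose from starch, had 331, 332 and 326 FPKM in MT40, against 1208, 1265 and 1256 FPKM in CK40 (log2 fold change -2.11 ± 0.03, adjusted p = 4.99e-16). A second beta-amylase gene (MSTRG.2329) was also lower (-1.20 ± 0.05), whereas a pair of phosphoglucan phosphatase genes (MSTRG.5011, 0.68 ± 0.07, and MSTRG.17142, 1.22 ± 0.06), which remove phosphate from starch, were higher.

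The soluble sugar genes also split within families. Of 13 genes of raffinose family synthesis, 4 were higher and 6 lower. While galactinol synthase 1 was higher, another galactinol synthase gene (MSTRG.19247) had 275, 280 and 276 FPKM in MT40, against 551, 628 and 610 FPKM in CK40. The galactosyltransferases that build raffinose from galactinol included MSTRG.2955, which was higher (2.95 ± 0.11), and MSTRG.7103 and MSTRG.21231, which were lower (-1.32 ± 0.05 and -2.20 ± 0.11). Of 13 trehalose genes, 7 were higher and 4 lower, among them a synthase gene that was higher (MSTRG.12730, 3.37 ± 0.14), in contrast to MSTRG.146.

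Cell wall genes were represented among the largest falls, but calls in the families as a whole went both ways. Of 31 expansin and xyloglucan enzyme genes, 6 were higher (19.4%), 8 lower (25.8%) and 17 not called. Of 75 pectin enzyme genes, 16 were higher (21.3%), 23 lower (30.7%) and 36 not called. Over all genes tested, 32.9% were called higher and 26.2% lower. The summed level of the first list was 743 to 764 FPKM in MT40, against 2376 to 2438 FPKM in CK40. That of the second was 306 to 312 FPKM in MT40, against 863.8 to 884.5 FPKM in CK40. In the cooler groups the sums lay between 591 (CK35) and 903 FPKM (MT35), and between 393 (CK35) and 503 FPKM (CK25). The most abundant xyloglucan gene (MSTRG.14257) had 290, 299 and 299 FPKM in MT40, against 956, 886 and 885 FPKM in CK40 (log2 fold change -1.81 ± 0.04). Pectate lyase 4 (MSTRG.9552, -2.003 ± 0.05) and a pectinesterase (MSTRG.2849, -3.10 ± 0.05), which removes methyl groups from pectin, were also lower. A xyloglucan enzyme gene with a low level (MSTRG.6191) was higher, with 16.7, 17.3 and 20.2 FPKM in MT40, against 4.29, 4.72 and 5.69 FPKM in CK40.

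Chaperone families differed in their summed deposited FPKM, a scale on which ratios ran above TMM-scaled fold changes by a median log2 of 0.19. Small heat shock proteins summed to 15750, 15880 and 16120 FPKM in MT40, against 13660, 13630 and 13510 FPKM in CK40. In MT35 the sum was 2350 to 2429 FPKM, in CK35 1984 to 2174 and in CK25 1908 to 2025, so both 40 °C groups were several times above the cooler ones. DnaJ proteins summed to 2576 to 2598 FPKM in MT40, against 4661 to 4986 FPKM in CK40, and HSP70 proteins to 2054 to 2109 FPKM in MT40, against 1693 to 1764 FPKM in CK40 and 3755 to 3810 FPKM in CK25. On counts, 10 of the 28 tested small heat shock protein genes were called higher in MT40 and 10 lower. Their median TMM-scaled log2 fold change was 0.075, where that of all genes tested was 0.10, so the list as a whole did not stand out on counts. Because near-identical members of this family can share reads, their individual values are uncertain.

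The small heat shock protein gene with the highest level in CK40 (MSTRG.22177) was lower, with 3399, 3464 and 3524 FPKM in MT40, against 4409, 4274 and 4268 FPKM in CK40 (log2 fold change -0.51 ± 0.08, adjusted p = 6.68e-05). Another (MSTRG.5787) was higher, with 3460, 3442 and 3490 FPKM in MT40, against 1879, 1959 and 1947 FPKM in CK40 (0.65 ± 0.10). A class I gene (MSTRG.16626) averaged 2047 ± 46.9 FPKM in MT40 and 665 ± 15.2 FPKM in CK40, and a second class I gene (MSTRG.23495) also was higher (1.34 ± 0.11). The mitochondrial gene (MSTRG.5414) and an HSP17.7 gene (MSTRG.8741) were lower (-1.30 ± 0.10 and -0.48 ± 0.08).

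Of 25 HSP70 genes, 14 were called higher and 8 lower; limma on log2(FPKM + 1) called 5 lower. A heat shock cognate gene (MSTRG.5180) had 235, 242 and 241 FPKM in MT40, against 102, 107 and 101.3 FPKM in CK40 (log2 fold change 1.02 ± 0.04). The chloroplast stromal member (MSTRG.18891) was higher by 0.39 ± 0.05. The mitochondrial member (MSTRG.8897, -0.41 ± 0.03) and a luminal-binding protein of the endoplasmic reticulum (MSTRG.12355, -0.87 ± 0.04) were lower. The same contrast held for 2 of the 4 HSP90 genes: the HSP83-like gene (MSTRG.5596) averaged 1339 ± 14.8 FPKM in MT40 and 882 ± 12.9 FPKM in CK40, while endoplasmin (MSTRG.23406), the member of the endoplasmic reticulum, averaged 124 ± 1.58 FPKM in MT40 and 221 ± 5.81 FPKM in CK40.

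DnaJ co-chaperones, which deliver clients to HSP70, were more often lower (22 of 52) than higher (13), with a median log2 fold change of -0.30. These are 42.3% lower and 25% higher, where 26.2% and 32.9% of all genes tested were called so. A DnaJ 11-like gene (MSTRG.10129) had 42.0, 39.6 and 44.9 FPKM in MT40, against 569, 688 and 615 FPKM in CK40 (-4.08 ± 0.14), and a gene of the same description (MSTRG.11701) was higher (2.15 ± 0.10). Of 28 chaperonins, 11 were higher and 10 lower. The alpha and beta subunits that fold Rubisco in the chloroplast (MSTRG.1639 and MSTRG.21490) were among the higher ones (0.38 ± 0.03 and 0.58 ± 0.03), and a subunit of the cytosolic T-complex (MSTRG.8061) was lower (-1.07 ± 0.05).

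Heat stress transcription factors, a family that includes activators of chaperone genes, were called higher in 7 of 19 cases and lower in 7. Limma on log2(FPKM + 1) called 1 lower, and without CK40 replicate 2 edgeR called 4 higher. Factor B3 (MSTRG.4397) had 35.9, 40.5 and 37.1 FPKM in MT40, against 121, 119 and 122 FPKM in CK40 (log2 fold change -1.86 ± 0.07). HSF30 (MSTRG.18818) had 66.5, 66.9 and 60.8 FPKM in MT40, against 45.6, 39.5 and 40.1 FPKM in CK40 (0.44 ± 0.13, adjusted p = 0.00833).

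Ribosomal protein and proteasome genes were called lower in MT40 more often than higher, while autophagy genes were about evenly divided. Of 96 cytosolic ribosomal protein genes, 66 were called lower and 7 higher, with a median log2 fold change of -0.52, where 26.2% of all genes tested were called lower. Limma on log2(FPKM + 1) called 16 of them higher. Their summed level was 8247 to 8344 FPKM in MT40, against 11080 to 11330 FPKM in CK40, 6910 to 7231 in MT35, 8230 to 8743 in CK35 and 8554 to 8802 in CK25. The CK40 libraries were thus the highest, and the MT40 sums lay at the level of the untreated cooler groups or slightly below it. Ribosomal protein S6 (MSTRG.10579), a subunit known as a target of growth signalling, averaged 218 ± 3.01 FPKM in MT40 and 426 ± 14.7 FPKM in CK40.

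Of 79 ribosomal protein genes of organelles or of bacterial type, 36 were lower and 15 higher; limma on log2(FPKM + 1) called 26 higher. Of 41 proteasome subunits, parts of the protease that digests proteins tagged with ubiquitin, 22 were lower and 7 higher, with a median log2 fold change of -0.32; limma on log2(FPKM + 1) called 11 higher. Subunits alpha type-1 (MSTRG.10230, -0.79 ± 0.05) and beta type-2 (MSTRG.7815, -0.65 ± 0.07) were lower, and a beta type-5 gene (MSTRG.20207) was higher (0.56 ± 0.06). Autophagy genes were called higher in 13 of 36 cases and lower in 12, where limma on log2(FPKM + 1) called 7 lower, including ATG8 genes in either direction (MSTRG.24566, 0.52 ± 0.06, and MSTRG.22651, -1.65 ± 0.07).

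**Figure D4:**
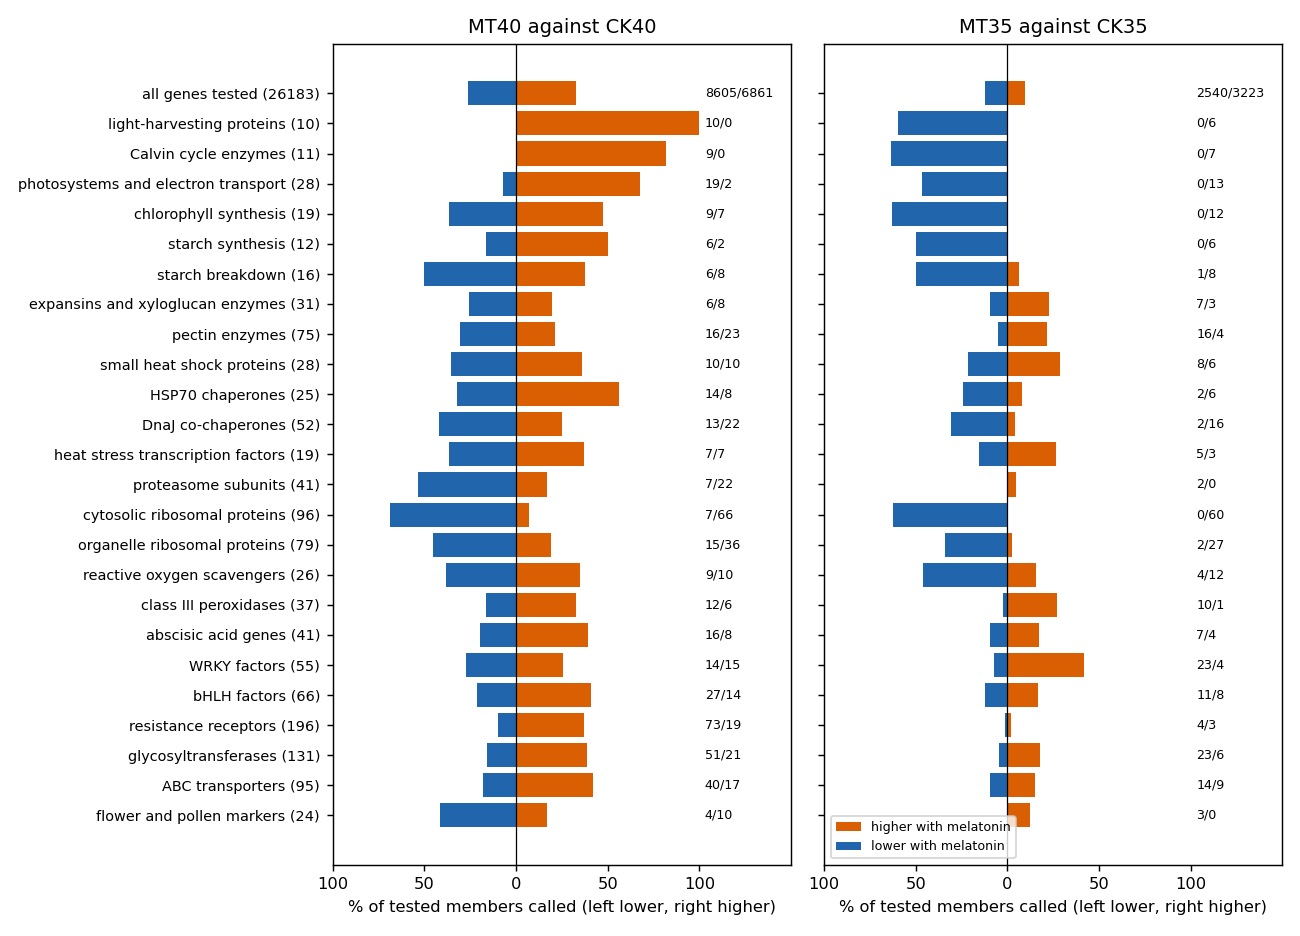
Share of each gene list called higher (right, orange) or lower (left, blue) with melatonin, as % of the tested members given in brackets, at 40 °C (left panel, MT40 against CK40) and at 35 °C (right panel, MT35 against CK35), with the counts higher/lower printed beside the bars. The bars of the light-harvesting, Calvin cycle and photosystem lists lie wholly or mostly to the right at 40 °C and to the left at 35 °C, while those of the cytosolic ribosomal proteins lie mostly to the left at both.

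Melatonin is often described as an antioxidant, and the genes of redox control were therefore listed. Of 26 scavengers of reactive oxygen species, 9 were higher and 10 lower; limma on log2(FPKM + 1) called 6 lower. An ascorbate peroxidase (MSTRG.1696), which removes hydrogen peroxide, had 342, 327 and 341 FPKM in MT40, against 154, 162 and 162 FPKM in CK40 (log2 fold change 0.88 ± 0.03). A second ascorbate peroxidase (MSTRG.7461, 0.49 ± 0.06) and the chloroplast copper-zinc superoxide dismutase (MSTRG.22301, 0.42 ± 0.06) were also higher, and a catalase (MSTRG.18342) was slightly lower, with 279, 290 and 285 FPKM in MT40, against 298, 300 and 305 FPKM in CK40.

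Of 37 class III peroxidases, secreted enzymes that act in walls and defence, 12 were higher and 6 lower. The one with the highest level (MSTRG.1842) had 164, 170 and 172 FPKM in MT40, against 328, 306 and 314 FPKM in CK40, whereas peroxidase 2 (MSTRG.9947) was higher (2.67 ± 0.12). Of 71 thioredoxin and glutaredoxin genes, 26 were higher and 26 lower (36.6% each), where 32.9% and 26.2% of all genes tested were called so. An m-type thioredoxin (MSTRG.19065), a chloroplast redox regulator, was higher (1.60 ± 0.06), and the variable chain of ferredoxin-thioredoxin reductase (MSTRG.23928), which feeds electrons to such thioredoxins, was lower (-2.05 ± 0.15).

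Of 8 tested genes related to tryptophan and melatonin synthesis, 5 were higher and 2 lower; limma on log2(FPKM + 1) called 1 lower. Tryptophan synthase beta chain 3 (MSTRG.14200) had 7.11, 7.07 and 7.19 FPKM in MT40, against 31.6, 30.5 and 29.7 FPKM in CK40 (log2 fold change -2.29 ± 0.07). A tryptophan aminotransferase-related gene (MSTRG.19164), of a family that acts in auxin synthesis, was higher (1.03 ± 0.08). The list was matched by words and holds genes of tryptophan and auxin metabolism as well as candidates for melatonin synthesis.

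Among hormone genes, an abscisic acid receptor gene (MSTRG.9907) had 103.4, 105 and 109 FPKM in MT40, against 8.76, 13.3 and 9.92 FPKM in CK40 (log2 fold change 3.12 ± 0.18). Its means of 18.6 FPKM in MT35, 8.07 in CK35 and 19.0 in CK25 left MT40 as the only group with a high level. Another receptor gene of the family (MSTRG.5665) was lower (-0.99 ± 0.07), and of 41 abscisic acid genes 16 were higher and 8 lower; limma on log2(FPKM + 1) called 5 lower. An auxin efflux carrier (MSTRG.16086) was lower, with 21.2, 24.6 and 27.0 FPKM in MT40, against 98.0, 115 and 115 FPKM in CK40. Of 96 auxin genes, 38 were higher (39.6%) and 21 lower (21.9%), where 32.9% and 26.2% of all genes tested were called so. In jasmonate synthesis, the amido synthetase that makes the active conjugate (MSTRG.6849) was higher (2.73 ± 0.08) and an allene oxide synthase (MSTRG.13459) was lower (-3.59 ± 0.20). A DELLA repressor of gibberellin signalling was higher (MSTRG.750, 1.89 ± 0.10) and a more abundant one was lower (MSTRG.13739, -1.15 ± 0.06).

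Transcription factor families held genes called in either direction, where 32.9% of all genes tested were called higher and 26.2% lower. Of 23 bZIP factors, 12 were higher (52.2%) and 4 lower (17.4%). Of 66 bHLH factors, 27 were higher (40.9%) and 14 lower (21.2%). The gene bHLH147-like (MSTRG.2250) had 108, 104 and 113 FPKM in MT40, against 14.7, 17.4 and 15.4 FPKM in CK40. Of 55 WRKY factors 14 were higher and 15 lower, of 40 NAC factors 11 and 11, of 68 MYB factors 17 and 24, and of 83 AP2/ERF factors 19 and 19. In this order the shares higher were 25.5, 27.5, 25 and 22.9%, and the shares lower 27.3, 27.5, 35.3 and 22.9%. A NAC factor (MSTRG.20464) was lower, with 36.5, 35.8 and 36.6 FPKM in MT40, against 148, 139 and 133 FPKM in CK40.

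Resistance receptors, which recognise pathogen molecules, were called higher in 73 of 196 cases and lower in 19, with a median log2 fold change of 0.64. The share higher, 37.2%, was near the 32.9% of all genes tested, and the share lower was 9.69%, against 26.2% of all genes; limma on log2(FPKM + 1) called 10 lower. The most abundant of those higher (MSTRG.10314) had 64.4, 64.2 and 61.4 FPKM in MT40, against 23.6, 19.6 and 22.5 FPKM in CK40. Of 131 glycosyltransferases 51 were higher and 21 lower; a fit on the 6 libraries alone called 33 higher. Of 95 ABC transporters 40 were higher and 17 lower, and a G family member (MSTRG.11319) had a log2 fold change of 2.75 ± 0.10.

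Late embryogenesis abundant proteins, which accumulate in drying or stressed tissue, were higher in 7 and lower in 6 of 15 cases; without CK40 replicate 3, and in a fit on the 6 libraries alone, 4 were called higher. A pair of genes with the same description differed in direction. One of them (MSTRG.21656) had 1500, 1544 and 1535 FPKM in MT40, against 428, 439 and 451 FPKM in CK40. The other (MSTRG.2164) had 80.0, 70.01 and 79.0 FPKM in MT40, against 1065, 917 and 903 FPKM in CK40.

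Marker genes were compared between MT40 and CK40 for cell types of the leaf, and also for root and for flower and pollen. Of 18 leaf mesophyll markers, which overlap the photosynthesis lists, 17 were higher and none lower, and their summed level was 16050 to 17250 FPKM in MT40, against 4019 to 4125 FPKM in CK40. Vascular markers summed to 98.7 to 101.8 FPKM in MT40, against 97.2 to 102.9 FPKM in CK40, and these ranges overlapped, although 14 of 31 were called higher and 6 lower. Phloem genes moved in either direction, such as a phloem protein 2-like gene that was higher (MSTRG.22514, 2.71 ± 0.11) and another that was lower (MSTRG.14278, -3.81 ± 0.10). Flower and pollen markers summed to 112.5 to 115.4 FPKM in MT40, against 236.6 to 250.4 FPKM in CK40, and 4 of 24 were called higher and 10 lower; limma on log2(FPKM + 1) called 6 lower. Their sum was 66.1 to 73.2 FPKM in MT35, 45.5 to 50.2 in CK35 and 35.4 to 40.7 in CK25. The markers of this list with the highest levels in CK40 were a pollen-specific extensin-like gene (MSTRG.19799, -2.33 ± 0.09) and a pollen-specific protein gene (MSTRG.5963, -0.93 ± 0.05). Root markers summed to at most 0.347 FPKM in MT40, against at most 0.741 FPKM in CK40, and guard cell and epidermis markers to at most 0.963 FPKM in MT40, against at most 2.44 FPKM in CK40. The part of a changed cell composition in the results was not tested.

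Whether melatonin acted the same way at 35 °C was asked by the difference between the effects, in the same fit. It was called in 12694 genes (48.5%), in 7125 (27.2%) with the effect at 40 °C above that at 35 °C and in 5569 (21.3%) with it below. At 35 °C, 5763 genes (22.0%) differed between MT35 and CK35, of which 2540 (9.70%) were higher and 3223 (12.3%) lower, and the median absolute log2 fold change was 0.25. The comparisons at 40 °C and 35 °C share no library. Both called 4406 genes, which is 28.5% of the calls at 40 °C and 76.5% of those at 35 °C. Of all genes tested, 22.0% were called at 35 °C and 59.1% at 40 °C, so these overlaps are to be read beside those shares. The direction was the same in 2610 of the 4406 genes and opposite in 1796. These are 45.3% and 31.2% of the calls at 35 °C.

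Photosynthesis genes that were higher with melatonin at 40 °C were often lower with it at 35 °C. Of the 10 light-harvesting genes, none was higher and 6 were lower in MT35 than in CK35, with a median log2 fold change of -0.26, and the difference between the effects was called in 9 genes, each time above 0. For Calvin cycle genes 7 of 11 were lower at 35 °C and the difference was called above 0 in 10, and for photosystem genes 13 of 28 were lower at 35 °C and the difference was called above 0 in 20. For proteasome subunits, 7 were higher and 22 lower at 40 °C, while 2 were higher and none lower at 35 °C (4 lower at unadjusted p under 0.05, none by DESeq2), and the difference was called below 0 in 22. Cytosolic ribosomal proteins were lower at 35 °C as well (60 of 96, none higher). For the light-harvesting and ribosomal lists at 35 °C, and for light-harvesting genes and mesophyll markers at 40 °C, the counts of 0 stayed 0 at unadjusted p under 0.05 in edgeR and by DESeq2. WRKY factors were more often higher at 35 °C (23 higher, 4 lower), and the difference was called below 0 in 24 of 55.

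By the smallest adjusted p, the genes whose effects differed most clearly were MSTRG.20857, MSTRG.5792, MSTRG.6506, MSTRG.22136 and MSTRG.9620, described above, and 3 others. A UV-B receptor-like gene (MSTRG.17436, chromosome 10, 8011814 to 8020290) had 138, 141 and 143 FPKM in MT40, against 1486, 1436 and 1447 FPKM in CK40, a log2 fold change of -3.56 ± 0.03. At 35 °C its log2 fold change was -0.40 ± 0.03. Fatty acid hydroperoxide lyase (MSTRG.6746), which makes green leaf volatiles, had 84.3, 85.2 and 83.4 FPKM in MT40, against 6.44, 6.44 and 5.999 FPKM in CK40, and its log2 fold change was 3.55 ± 0.04 at 40 °C and -0.37 ± 0.04 at 35 °C. A chlorophyll-binding domain gene (MSTRG.10776) had log2 fold changes of 2.29 ± 0.03 at 40 °C and -0.35 ± 0.03 at 35 °C.

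**Figure D5:**
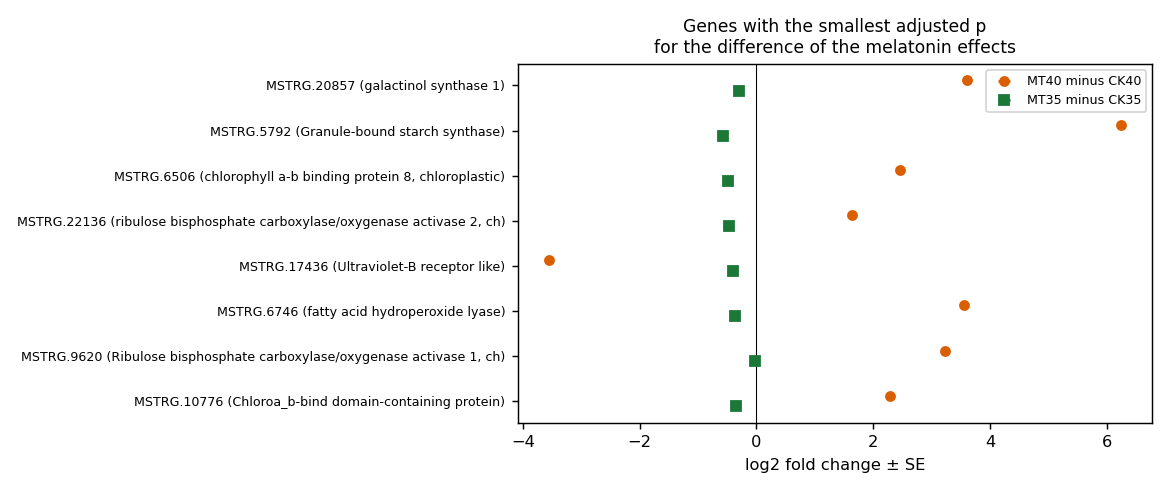
Log2 fold change ± SE (horizontal axis) of the 8 genes with the smallest adjusted p for the difference between the melatonin effects, at 40 °C (circles, MT40 minus CK40) and at 35 °C (squares, MT35 minus CK35), where most error bars are narrower than the symbols. At 35 °C every value lies between -0.57 and -0.02, while at 40 °C 7 lie above 1.6 and the UV-B receptor-like gene at -3.56.

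The MT40 libraries were also set against all others gene by gene. In FPKM, all 3 MT40 libraries lay above the other 12 in 3023 of the genes tested (11.5%) and below them in 997 (3.81%). After TMM scaling of the counts these were 2427 (9.27%) and 1324 (5.06%) genes. The same counts for CK40 were 4457 (17.0%) and 6648 (25.4%) in FPKM, and 5496 (21.0%) and 5426 (20.7%) after scaling. Rubisco activase 1 (MSTRG.9620) and the abscisic acid receptor gene (MSTRG.9907) are among the genes highest in MT40, and expansin-A1 (MSTRG.20456) is among those lowest in it.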

How the data were processed

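Leaf polyA RNA of 15 libraries was sequenced, 3 in each of 5 groups. Reads were trimmed with cutadapt 1.9, aligned with HISAT2 2.0.4 and assembled with StringTie 1.3.4d, per the submitters' processing notes; which genome build, counting settings and strand rule they used is not given in those notes. The authors deposited 1 table holding, for each gene and library, a raw count and an FPKM value, that is, fragments scaled to gene length and library size. Another 6 columns matched no sample of the series and were not used. Among the deposited counts of 1 to 20, 58.8 to 63.0% were even, so both mates of a pair may have been counted, and a fit on halved counts was run.

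Counts were tested with edgeR 4.0.16 in R 4.3.3: TMM scaling, filterByExpr (26183 of 29985 genes kept), and the quasi-likelihood test over all 5 groups (10 residual degrees of freedom), with Benjamini-Hochberg adjustment over all genes tested. The comparisons were MT40 minus CK40, MT35 minus CK35 and the difference between them. The log2(FPKM + 1) values were tested with limma 3.58.1 and counts with DESeq2 1.42.0 as alternatives, beside other scaling, no filter, a pseudocount of 0.1, the compared groups alone, a replicate block and each library of the comparison left out. The test was checked on simulated data in which few genes changed in MT40, in equal numbers up and down. That check does not cover a comparison in which most genes differ, nor how scaling sets the split between higher and lower.

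Named genes are the 12 largest rises and falls in mean log2(FPKM + 1), with a called difference, a description, a mean of at least 5 FPKM in the higher group and no overlap; up to 3 genes per list and direction with the highest mean FPKM at 40 °C; and the 8 genes with the smallest adjusted p for the difference. Gene lists were matched by words in the deposited descriptions, leaving out 1316 merged loci. The members and lists were chosen with earlier results of these data known. Near-identical paralogs can share reads. A level of a list is the sum of its members' deposited FPKM.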

Additional observations from a re-analysis of the deposited data

Results flagged for a closer look

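The effect of melatonin at 40 °C was tested against its effect at 35 °C in edgeR's quasi-likelihood fit, and the effects differed in 12694 genes. In each of the 8 genes with the smallest adjusted p for this difference the log2 fold change was larger in size at 40 °C, and the difference was above 0 in 7 of them. The log2 effect at 40 °C minus that at 35 °C was 3.91 for galactinol synthase 1 (MSTRG.20857), 6.80 for the granule-bound starch synthase (MSTRG.5792) and 3.92 for fatty acid hydroperoxide lyase (MSTRG.6746). It was 3.26 and 2.12 for the Rubisco activase genes MSTRG.9620 and MSTRG.22136. For chlorophyll a-b binding protein 8 (MSTRG.6506) it was 2.94, and for the chlorophyll-binding domain gene (MSTRG.10776) it was 2.64. The UV-B receptor-like gene (MSTRG.17436) had a difference of -3.16.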

How the results depend on the processing

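The number of genes called between MT40 and CK40, 15466, was 14863 with the 6 libraries fitted alone, 15309 with DESeq2's size factors (RLE) in edgeR, 15222 with no count filter, 15629 with DESeq2, 15636 with halved counts and 12576 at adjusted p under 0.01. Leaving out 1 library at a time gave 14320 to 14568 calls, and 6805 to 6862 genes changed at least 2-fold. With limma on log2(FPKM + 1), the count changed at least 2-fold was 4623, against 7141 in edgeR, and the count at least 2-fold lower was 1616, against 2894; with a pseudocount of 0.1 they were 6722 and 1960. These fits also differ in test, scale and filter (22335 genes tested), and the cause was not tested. The difference between temperatures was called in 11932 to 12289 genes with 1 library left out. Each of the 140 genes in the sensitivity tables kept its direction and call under all 14 alternatives. Nearly all of them were chosen from genes already called in these data, by large change or high level. That choice favoured this outcome, which therefore says little about other genes. Same-numbered libraries of MT40 and CK40 showed no shared deviation across genes (correlations 0.0114, 0.0182 and 0.00155), and other groups were not compared this way. The labels do not say whether the numbers pair libraries. With a replicate block 15063 genes were called. The 3 libraries per group and counts near 0 limit the precision of low genes.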
